A study of Mus musculus with 12 samples.

Results

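The comparison described here set cochleae of mice exposed to 105 dB noise against cochleae of mice held at 70 dB ambient sound. Its members were the 8 libraries of these groups, 4 and 4 of the 12 in the series, chosen by their labels, and within them the 19497 of 35496 genes that passed a filter on low counts. All mice were FVB/NCrl, an inbred strain, aged 60 days after birth, and carried no transgene or allele that the labels name. They stayed awake during 30 minutes of sound at their group's level (in dB SPL, the decibel scale of sound pressure). Cochlear RNA was taken right afterwards, and the 70 dB group is the control. The remaining 4 libraries, exposed at 94 dB, entered the model fit and are given beside a result where they bear on it.

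The cochlea turns sound into nerve signals: hair cells sit on supporting cells, the stria vascularis holds the potential that drives them, fibrocytes recycle potassium, and spiral ganglion neurons carry the signal to the brain. Loud sound loads all of these cells, and a first transcriptional answer to almost any strong stimulus is the set of immediate early genes, whose transcription needs no new protein. Their products are transcription factors such as the AP-1 proteins and the brakes on the signalling that induced them. Stress also raises glucocorticoid hormone, which acts on its own targets through a nuclear receptor.

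Libraries held between 31141706 and 42317781 counts at 70 dB and between 32057388 and 40239711 at 105 dB. Values below are counts relative to the TMM-scaled library size (CPM), 3 counts being 0.0703 to 0.0966 CPM depending on the library. Haemoglobin genes took 1.84 ± 0.17% of counts at 70 dB and 2.40 ± 0.35% at 105 dB, and mitochondrially encoded genes 5.36 ± 0.25% and 4.77 ± 0.43% (SD, n = 4). Defining markers of the labelled tissue were present: the fibrocyte gene Coch was at 6870.4 ± 707 CPM, the gap junction gene Gjb2 at 731 ± 22.8 and the hair cell gene Otof at 40.2 ± 4.09 at 70 dB (SD, n = 4). The samples also held marrow cells, with the neutrophil gene S100a9 at 2046 ± 225 CPM (SD, n = 4). The outer hair cell gene Slc26a5 read only 0.250 ± 0.0852 CPM (SD, n = 4), close to the limit of detection. Whether each library stands for a single animal or several is left unsaid in the labels; the tests therefore speak of variation among these 8 samples, and part of it may be technical.

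Among the genes higher at 105 dB were the transcription factor genes Fos, Fosb, Atf3, Nr4a1, Nr4a3 and Egr1, the feedback inhibitor genes Dusp1 and Sik1, and the glucocorticoid targets Tsc22d3, Sgk1 and Per1. Among the genes that were lower were the transcription factor genes Sox9, Snai2, Pou3f4 and Tbx18, the clock gene Nr1d1 and the macrophage receptor gene Cx3cr1. By edgeR's quasi-likelihood test with Benjamini-Hochberg adjustment, 316 genes (1.62% of those tested) differed between 105 and 70 dB, 217 higher (1.11%) and 99 lower (0.508%). In 213 of the 217 and 97 of the 99, all 4 libraries at 105 dB lay on 1 side of all 4 at 70 dB, a separation shown by 10.8% of all genes tested (5.78% higher, 5.03% lower). The higher genes made up 68.7% of calls; upper-quartile factors in place of TMM moved that share to 58.3%, and removing trends on GC content and transcript length to 76.0% (316 higher, 100 lower). Changes were small for most genes, since 41 had more than doubled and 6 had dropped by more than 2-fold. The median log2 fold change of all genes tested was -0.0039. When the test asked for more than a 1.2-fold change, 71 genes passed, 61 higher and 10 lower. Single libraries set the length of the list, which fell to 126 and 187 genes when replicate 2 or 3 of the 105 dB group was left out. It fell to 149 and 191 when replicate 4 or 1 of the 70 dB group was. Of the 316, 117 (95 higher, 22 lower) kept their calls without each of the 12 libraries in turn (below, a call "kept without 6 of 12 libraries" held in 6 of the 12 fits that each left out 1 library). The libraries whose omission ended most calls were 105 dB replicate 2 (192 of 316) and 70 dB replicate 4 (169), and those that ended fewest were 94 dB replicates 1 and 2 (26 each). At an unadjusted p under 0.05, 3653 genes (18.7%) would have passed, and DESeq2 called 891 (4.57%).

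**Figure D1:**
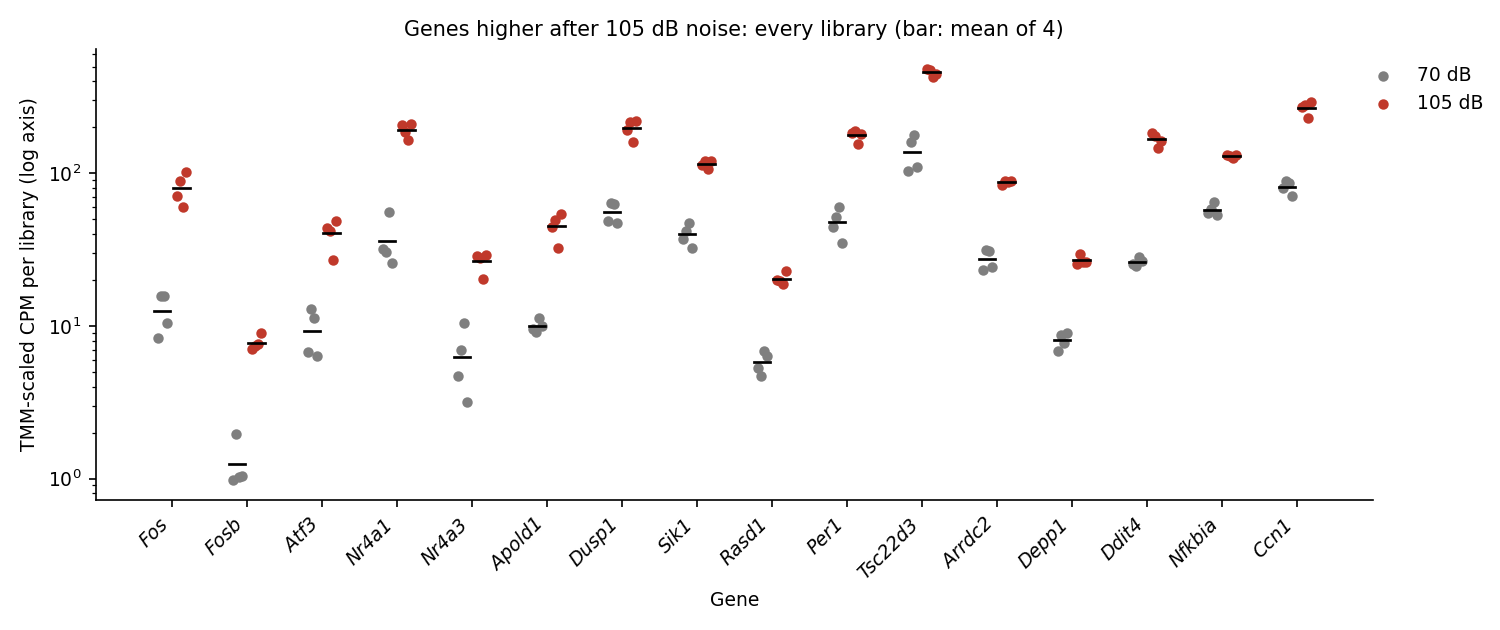
TMM-scaled CPM (log axis) of 16 genes called higher, with 1 point for each of the 4 libraries at 70 dB (grey) and 105 dB (red) and a bar at each group's mean. In every gene shown all red points lie above all grey ones, and the 70 dB points of Nr4a3 spread from 3.17 to 10.4 CPM.

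Upstream sequences of 4 genes that rose are shown first, because each holds a known response element close to its start. A cyclic AMP response element (CRE, letters TGACGTCA) is bound by CREB, a CArG box by serum response factor and an E-box (CACGTG) by the clock proteins. Each line gives the 250 bases before the RefSeq start site on the gene's own strand (GRCm38.p6), and capitals mark the elements searched for. Dusp1 (chr17:26508473-26508722, minus strand) has a CRE from -143 to -136 and an E-box from -126 to -121. Btg2 (chr1:134079156-134079405, minus strand) has a CRE from -166 to -159, and Zfp36 (chr7:28379229-28379478, minus strand) has a CArG box from -58 to -49. Ciart (chr3:95882229-95882478, minus strand) has 3 E-boxes, of which the nearest runs from -44 to -39.
Dusp1: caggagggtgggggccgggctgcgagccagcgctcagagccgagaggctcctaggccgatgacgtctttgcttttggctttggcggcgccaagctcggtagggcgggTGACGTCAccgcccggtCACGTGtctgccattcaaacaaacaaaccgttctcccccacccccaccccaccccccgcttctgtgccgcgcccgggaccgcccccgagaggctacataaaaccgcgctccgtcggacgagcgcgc
Btg2: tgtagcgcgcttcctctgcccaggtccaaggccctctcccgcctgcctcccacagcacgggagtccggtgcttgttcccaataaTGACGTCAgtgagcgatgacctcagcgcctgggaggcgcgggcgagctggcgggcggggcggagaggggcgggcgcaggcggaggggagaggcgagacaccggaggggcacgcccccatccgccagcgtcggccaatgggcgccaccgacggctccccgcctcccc
Zfp36: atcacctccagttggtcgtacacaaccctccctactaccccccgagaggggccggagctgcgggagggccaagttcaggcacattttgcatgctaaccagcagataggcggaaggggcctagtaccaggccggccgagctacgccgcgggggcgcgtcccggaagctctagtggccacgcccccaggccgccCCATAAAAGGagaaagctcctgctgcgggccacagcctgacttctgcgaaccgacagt
Ciart: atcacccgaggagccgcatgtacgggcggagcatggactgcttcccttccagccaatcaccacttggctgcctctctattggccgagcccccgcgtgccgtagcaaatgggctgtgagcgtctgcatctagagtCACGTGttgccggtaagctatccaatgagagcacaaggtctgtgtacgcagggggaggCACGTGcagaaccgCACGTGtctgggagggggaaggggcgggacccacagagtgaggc
The same letters were then counted over all promoters. Among 13539 genes tested that have a promoter in the RefSeq table (250 bases before to 50 after the start, both strands), 2.87% held the CRE, against 2.96% of 169 called higher and 3.12% of 64 called lower. The AP-1 motif (TGANTCA) stood in 5.65%, 4.73% and 7.81% of these 3 sets. The E-box stood in 9.29%, 14.8% and 9.38%, the CArG box in 1.32%, 2.37% and 1.56%, and an NF-kB motif in 5.24%, 5.33% and 1.56%. A heat shock element stood in 0.377% of all promoters and in 0 of the 169 and 0 of the 64. These shares are descriptions of letters in a short window; CRE and AP-1 matches do not overlap by their spelling, and more distant sites were not searched.

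AP-1 is a dimer of FOS and JUN proteins that switches on genes after growth factor, calcium or stress signals. Of 17 AP-1 and ATF genes tested, 9 rose and none fell, and the median log2 fold change of the 17 was 0.43. Counts of this kind, here and below, stand beside 1.11% of all genes tested called higher and 0.508% called lower. Fos (chromosome 12, 85473890 to 85477273 in mm10) read 8.31, 15.6, 15.6 and 10.4 CPM in replicates 1 to 4 at 70 dB and 70.8, 88.96, 60.3 and 103 CPM at 105 dB. The lowest exposed library was thus well above the highest ambient one, and the log2 fold change was 2.69 (SE 0.23; adjusted p = 1.07e-04 by edgeR). Its close relative Fosb read 0.984, 1.96, 1.03 and 1.04 CPM at 70 dB and 7.06, 7.37, 7.66 and 8.99 at 105 dB, so that a nearly silent gene became a modestly expressed one. Atf3, a stress-induced member of the ATF family, read 6.70, 12.9, 11.2 and 6.34 CPM and 43.8, 41.9, 27.1 and 48.4 CPM, a log2 fold change of 2.11 (SE 0.25; edgeR adjusted p = 0.00136). In both groups its replicates varied about 2-fold, and the groups still did not overlap. The JUN partners rose less: Jun by 0.97 and Junb by 0.90 on the log2 scale, from 57.9 ± 3.995 to 113 ± 11.8 CPM and from 34.5 ± 3.39 to 64.3 ± 4.74 CPM (SD, n = 4). Jund and Fosl2, at 0.54 and 0.50, passed with adjusted p of 0.0423 and 0.0320 (edgeR), but kept their calls without only 2 and 6 of the 12 libraries, and the Jund libraries overlapped. The small MAF proteins bind DNA as partners without an activation domain of their own. Maff rose by 1.25 and Mafk by 0.43, while Mafg had a log2 fold change of 0.19 and did not pass (edgeR adjusted p = 0.155). Other AP-1 genes did not pass, and Fosl1 and Batf3 had log2 fold changes of 0.027 and 0.069. Jun shares exonic sequence positions with the antisense gene Junos and Junb with its neighbour Prdx2; as the use of strand in counting is not given in the sources used here, their counts are uncertain to that extent.

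The NR4A proteins are orphan nuclear receptors, and EGR proteins are zinc finger factors, both induced through serum response factor or CREB. Of 20 such immediate early genes tested, 8 rose and none fell, with a median of 0.53, and leaving out any 1 library ended none of the 8 calls. Nr4a1 (chromosome 15, 101254269 to 101274795) read 31.9, 30.7, 55.5 and 25.8 CPM at 70 dB and 209, 188, 166 and 212 at 105 dB, a log2 fold change of 2.43 (SE 0.22; edgeR adjusted p = 1.55e-04). Nr4a3 read 4.71, 6.93, 10.4 and 3.17 CPM and 28.7, 27.8, 20.2 and 29.02 CPM, with 105 dB replicate 3 below its 3 neighbours. The remaining family member, Nr4a2, went from 10.6 ± 2.63 to 15.5 ± 2.34 CPM (SD, n = 4) and did not pass (log2 fold change 0.55; edgeR adjusted p = 0.122). Egr1 rose from 50.9 ± 10.7 to 171 ± 41.9 CPM (SD, n = 4; log2 fold change 1.75), while Egr2 and Egr3 had log2 fold changes of 0.57 and -0.096 with edgeR adjusted p of 0.0703 and 0.687. Whether these members differed from Nr4a1 or Egr1 in their response was not tested. Apold1, an endothelial early response gene, read 9.53, 9.06, 11.2 and 10.04 CPM at 70 dB and 44.4, 49.2, 32.3 and 54.03 at 105 dB. The 4 ambient libraries lay within a narrow band and every exposed library was well over it (log2 fold change 2.18; SE 0.16; edgeR adjusted p = 2.85e-06). The matricellular genes Ccn1 and Ccn2 rose from 81.7 ± 8.10 to 269 ± 28.1 CPM and from 193 ± 29.5 to 353 ± 10.5 CPM (SD, n = 4). Some genes best known from neuronal activity did not pass. Arc, which acts at synapses, was at 3.50 ± 0.265 and 4.40 ± 0.228 CPM, Npas4 at 4.76 ± 0.826 and 6.74 ± 0.466, and the growth factor gene Bdnf at 5.36 ± 2.11 and 4.50 ± 0.682 (SD, n = 4), with edgeR adjusted p of 0.201, 0.0765 and 0.541.

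Early response genes include the proteins that end the response. Of 21 MAP kinase phosphatases and feedback inhibitors, 4 rose and none fell (median 0.094). Dusp1, the nuclear phosphatase that inactivates MAP kinases and whose upstream sequence is printed above, read 48.4, 63.9, 62.9 and 47.1 CPM at 70 dB and 192, 218, 159 and 219 CPM at 105 dB. That is a log2 fold change of 1.82 with an SE of 0.12 (edgeR adjusted p = 7.96e-07); its exons overlap those of Ergic1. Rasd1, a steroid-inducible small GTPase, read 5.29, 4.72, 6.81 and 6.31 and 19.9, 19.6, 18.7 and 22.7 CPM, and Errfi1, an inhibitor of EGF receptor kinase, rose by 1.23 on the log2 scale. Dusp6, Spry2 and Spry4, which brake the ERK branch, had log2 fold changes of 0.11, 0.068 and 0.094 (edgeR adjusted p 0.457, 0.702 and 0.621), and Dusp4 was at -0.61 (edgeR adjusted p = 0.0542). Dusp2 passed at 0.0445 (edgeR adjusted p) but kept that call without only 6 of 12 libraries.

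Of 15 Ier and Zfp36 genes, 4 rose and none fell, and leaving out any 1 library ended none of these calls. These were Ier2 and 3 genes whose products speed the removal of messenger RNA tails, Zfp36, Btg2 and Tob2. Tob2 read 47.6, 50.6, 54.8 and 42.9 CPM at 70 dB and 109, 113, 102 and 104 CPM at 105 dB, with no overlap and a log2 fold change of 1.13 (SE 0.073; edgeR adjusted p = 2.05e-07). Zfp36 and Btg2, printed above with a CArG box and a CRE, rose by 0.91 and 0.90; Zfp36l1 and Btg1 had log2 fold changes of 0.25 and 0.27 and did not pass. Among 16 CREB-linked genes, 3 rose and none fell: Nr4a1, Sik1 and, with an edgeR adjusted p of 0.0445 and a call kept without only 5 of 12 libraries, Crem. Sik1, a kinase that switches off CREB coactivators, read 36.8, 42.1, 47.5 and 32.4 CPM and 113, 119.5, 107 and 121 CPM (log2 fold change 1.54; SE 0.10; edgeR adjusted p = 2.05e-07). Its relatives Sik2 and Sik3 were at -0.082 and 0.0033. Of 15 Krüppel-like factor genes 4 rose and none fell. Klf2, induced in endothelium by flow, went from 48.7 ± 9.07 to 96.5 ± 11.2 CPM (SD, n = 4), and Klf15 and Klf13 rose by 0.60 and 0.43; the fourth, Klf1, is erythroid and is taken up below. Of 23 growth arrest and p53-linked genes 6 rose and none fell, led by Ddit4 and Gadd45g. Ddit4, an inhibitor of mTOR signalling, read 25.5, 24.7, 28.5 and 26.7 CPM at 70 dB and 182, 176, 145 and 163 at 105 dB, and Gadd45g read 14.2, 17.3, 17.1 and 12.99 and 43.7, 41.9, 55.2 and 44.4. Among their relatives, Gadd45a and Gadd45b had log2 fold changes of -0.026 and 0.021. The p53-linked genes were divided. Cdkn1a, Trp53inp1 and Plk3 rose by 0.40, 0.53 and 0.64 (log2), each with a call kept without 12 of 12 libraries. Sesn1 rose by 0.30, with a call kept without only 7 of 12. The p53 targets Mdm2, Ccng1 and Bbc3 were at 0.072, 0.014 and -0.037. Cebpb, an inflammatory transcription factor, rose by 2.07, the only call among 6 C/EBP genes; it overlaps Tmem189, and the counts of the pair cannot be told apart without strand.

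Of 30 glucocorticoid receptor targets 14 rose and none fell, the median of the 30 being 0.57 (log2), and 13 of the 14 kept their calls without each library. Several of these genes (Ddit4, Dusp1, Errfi1, Gadd45g, Nfkbia, Per1) also stand in other lists, so the counts are not independent. Tsc22d3, which encodes the glucocorticoid-induced leucine zipper protein, was the most abundant of the 14 at 105 dB and read 103, 161, 179 and 109.7 CPM at 70 dB and 480.1, 475, 429.7 and 445 CPM at 105 dB. The ambient libraries fell into a lower and a higher pair, and both pairs were far below every exposed library (log2 fold change 1.73; SE 0.15; edgeR adjusted p = 2.28e-05). Sgk1, a kinase that raises sodium transport, read 104, 116, 135 and 99.5 and 252, 247, 199.9 and 268 CPM. Arrdc2, an arrestin-domain gene, read 23.1, 31.5, 31.1 and 24.2 and 84.1, 88.7, 87.1 and 89.1 CPM, again without overlap (log2 fold change 1.67; SE 0.11; edgeR adjusted p = 2.60e-07). Other classical targets did not pass. Fkbp5, a cochaperone of the receptor, read 35.9, 58.6, 62.7 and 33.2 CPM at 70 dB and 74.98, 77.8, 61.8 and 70.3 at 105 dB, so the groups overlapped (log2 fold change 0.58; edgeR adjusted p = 0.147). Zbtb16 and Pdk4 had log2 fold changes of -0.81 and 0.44 (edgeR adjusted p 0.132 and 0.147). The receptor gene itself, Nr3c1, was at 88.1 ± 3.93 and 83.7 ± 4.998 CPM (SD, n = 4). Mt1, a metal-binding metallothionein gene, rose by 0.79 (edgeR adjusted p = 0.0170; call kept without 11 of 12 libraries, with adjusted p up to 0.0798).

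The clock genes moved singly. Of 23 tested, 2 rose and 1 fell, and the median was -0.026. Per1 (chromosome 11, 69095217 to 69109960), a repressor of the clock that also answers to glucocorticoid and CREB, read 44.3, 51.6, 59.98 and 35.05 CPM at 70 dB and 185, 190.1, 155 and 182 CPM at 105 dB (log2 fold change 1.90; SE 0.14; edgeR adjusted p = 5.17e-06). Ciart, a clock repressor with the 3 E-boxes printed above, read 10.1, 7.22, 9.07 and 7.34 and 17.8, 16.8, 16.5 and 15.1 CPM, and its groups did not overlap either (edgeR adjusted p = 1.46e-04). Nr1d1, the nuclear receptor that represses Arntl, moved the other way, with 187, 135, 139.9 and 139 CPM at 70 dB and 96.2, 99.7, 92.3 and 91.96 CPM at 105 dB. Every exposed library was below every ambient one, and the log2 fold change was -0.66 (SE 0.091; edgeR adjusted p = 6.40e-04); Nr1d1 overlaps Thra on the other strand. Arntl, Clock, Per3 and Dbp had log2 fold changes of 0.16, -0.15, -0.087 and -0.39, and Per2 and Nfil3 of 0.48 and 0.85, none of which passed. The labels give no clock time for the exposures, so time of day and noise cannot be told apart for this list.

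Of 23 NF-kB subunit and inhibitor genes only Nfkbia was called; it encodes the inhibitor IkB-alpha and read 55.2, 58.5, 64.4 and 53.1 CPM at 70 dB and 131, 130.2, 125 and 132 CPM at 105 dB. The groups did not overlap (log2 fold change 1.16; SE 0.075; edgeR adjusted p = 2.05e-07). Tnfaip3, Nfkbiz and Relb, targets of the same factor, had log2 fold changes of 0.15, 0.13 and 0.21. None of 32 cytokine, receptor and Socs genes was called in either direction by edgeR (7 at an unadjusted p under 0.05 and 1 by DESeq2). Over all genes tested, 18.7% had an unadjusted p under 0.05 and DESeq2 called 4.57%. Such counts, here and below, are to be read beside these shares. Of 32 endothelial activation and angiogenic genes 6 rose and none fell, among them Apold1, Klf2, Rhob (log2 fold change 0.57), Vcam1 and Vwf. Vcam1, the adhesion molecule for leukocytes, went from 174 ± 30.4 to 236 ± 13.9 CPM (SD, n = 4), with an adjusted p of 0.0421 by edgeR, a call kept without only 5 of 12 libraries; Icam1 and Sele had log2 fold changes of -0.17 and 0.074. None of 27 interferon-stimulated genes was called, and their median was -0.24 (4 at an unadjusted p under 0.05 and 0 by DESeq2). Here 70 dB replicate 4 was high (Ifit3 at 34.7 CPM there against 15.99, 15.3 and 8.07). Without single libraries that median ran from -0.33 to -0.079.

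The study's title concerns protein misfolding stress, so the chaperones and the degradation machinery were examined gene by gene. Heat shock genes are induced by the factor HSF1 when unfolded protein titrates chaperones away. Of 20 HSP70 and HSP110 genes and cochaperones none was called by edgeR (6 at an unadjusted p under 0.05 and 1 by DESeq2), with a median of 0.076. Nor was any of 18 HSP90 and HSF genes (3 at an unadjusted p under 0.05 and 1 by DESeq2), with a median of 0.12. The shares at an unadjusted p under 0.05 were 30% for HSP70 and 16.7% for HSP90, against 18.7% of all genes. The HSP90 median was 0.069 without 70 dB replicate 1 and 0.19 without 70 dB replicate 3, whose own median member (0.19 above the 70 dB mean) was higher than in 3 of the exposed libraries. The inducible gene Hspa1a (chromosome 17, 34969190 to 34972156) read 2.90, 12.7, 25.4 and 3.29 CPM in replicates 1 to 4 at 70 dB and 31.4, 43.7, 23.5 and 30.2 at 105 dB. Replicate 3 of the ambient group was higher than replicate 3 of the exposed group, and the log2 fold change of 1.54 (SE 0.60) had an edgeR adjusted p of 0.219. Hspa1b, nearly the same in sequence and next to it, had 15.03, 61.2, 118 and 14.2 CPM at 70 dB and 89.5, 109, 66.7 and 102 CPM at 105 dB (edgeR adjusted p = 0.507); reads of the pair may be shared, so both are uncertain. Hspa8, the constitutive HSP70, read 1257, 1953, 2370.3 and 1518 CPM at 70 dB and 2223, 2479, 2512 and 2095 at 105 dB. In all 3 genes the ambient libraries spread more widely than the exposed ones, with replicates 1 and 4 low and replicate 3 high.

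Dnajb1, the HSP40 partner of HSP70, was the only call among 40 J-domain genes. It read 66.996, 99.4, 125 and 70.5 CPM at 70 dB and 149.9, 184, 138 and 174 at 105 dB, without overlap (log2 fold change 0.84; SE 0.18; edgeR adjusted p = 0.0477). That call was kept without only 1 of the 12 libraries, with adjusted p up to 0.154. Among 11 small heat shock and Bag3 genes the only call was Dedd2, a death effector domain gene carried in the list as a heat-induced gene (44.7 ± 2.95 and 58.5 ± 2.92 CPM, SD, n = 4; edgeR adjusted p = 0.0116; 0.0595 without 105 dB replicate 2). The crystallin gene Cryab and the small heat shock gene Hspb1 had log2 fold changes of 0.37 and 0.40 with edgeR adjusted p of 0.223 and 0.538. All 11 members had a log2 fold change above 0, with a median of 0.33, against -0.0039 over all genes tested. The groups overlapped, since the median member stood 0.32 above the 70 dB mean in 70 dB replicate 2 and 0.31 and 0.094 above it in 105 dB replicates 1 and 4. The median was 0.22 without 70 dB replicate 1, and 0.28 with 10 of 11 positive once GC and length trends were removed.

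**Figure D2:**
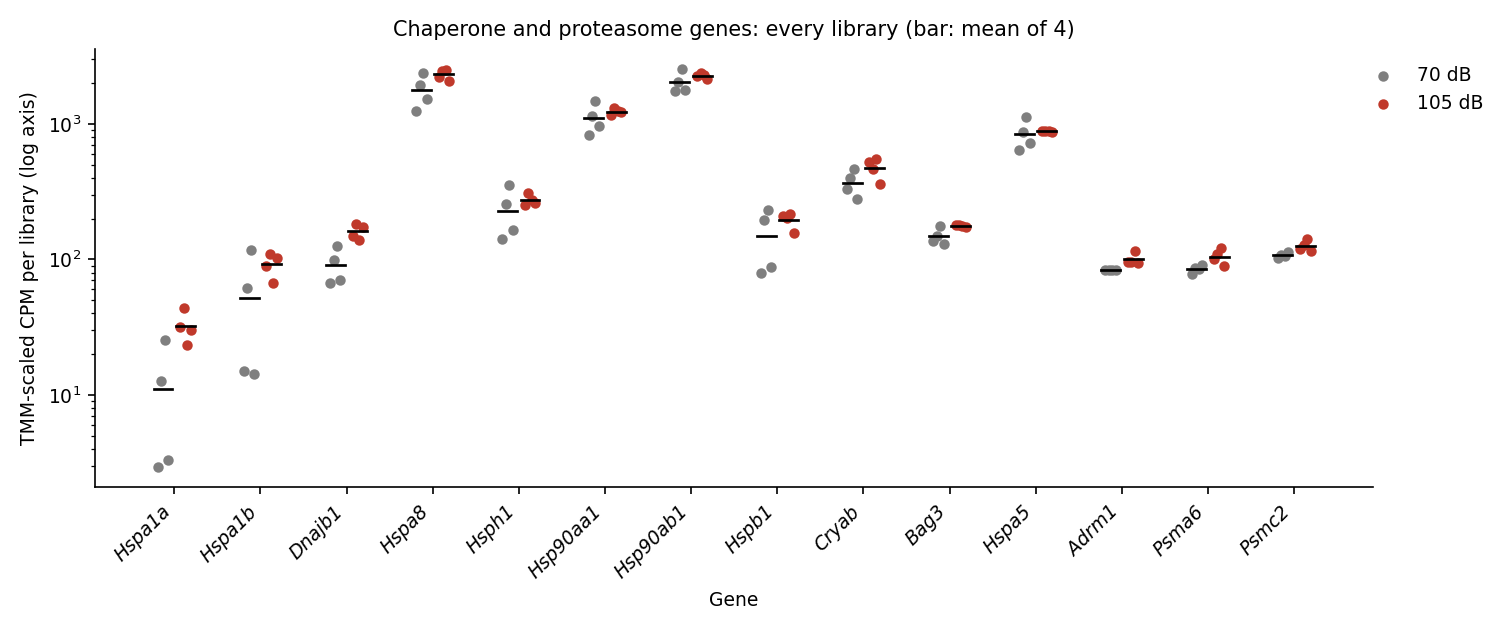
TMM-scaled CPM (log axis) of 14 chaperone and proteasome genes, with 1 point for each of the 4 libraries at 70 dB (grey) and 105 dB (red) and a bar at each group's mean. The 70 dB points of Hspa1a spread from 2.90 to 25.4 CPM and reach into the 105 dB points, while the proteasome genes at the right lie close together in both groups.

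Lists of large protein complexes held mostly positive log2 fold changes. Their calls stand beside 1.11% of all genes tested called higher. None of 14 chaperonin and prefoldin genes was called by edgeR (7, or 50%, at an unadjusted p under 0.05, against 18.7% of all genes, and 3 by DESeq2). All 14 had positive log2 fold changes, with a median of 0.19. The chaperonin folds actin and tubulin, and its subunit genes Cct5 and Cct8 were at 0.28 and 0.27 (edgeR adjusted p 0.0543 and 0.107). None of 47 proteasome subunit and assembly genes was called by edgeR (17, or 36.2%, at an unadjusted p under 0.05 and 3 by DESeq2). Of these, 46 had positive log2 fold changes, and the median of the 47 was 0.16. In 7 of the 47, and in 5 of the 14 chaperonin and prefoldin genes, all exposed libraries lay above all ambient ones, against 5.78% of all genes tested. The ubiquitin receptor gene Adrm1 read 83.1, 82.9, 84.1 and 83.5 and 96.3, 95.99, 115 and 94.1 CPM (log2 fold change 0.27; edgeR adjusted p = 0.0540). Cytosolic ribosomal protein genes had 75 of 76 positive with a median of 0.30. Of the 76, 5 rose (6.58%): Rps19, Rpl37a, Rps10, Rps13 and Rps20. None of these had a call kept without each library, and processed copies of ribosomal protein genes make the counts uncertain. Of the 76, 45 (59.2%, against 18.7% of all genes) had an unadjusted p under 0.05. DESeq2 called 20 (26.3%, against 4.57%). Nuclear genes of oxidative phosphorylation had 74 of 75 positive, a median of 0.19 and 1 call by edgeR, Ndufa1 (22, or 29.3%, at an unadjusted p under 0.05 and 5 by DESeq2). The 13 mitochondrially encoded genes, which serve the same complexes, had a median of -0.057 and no call by edgeR (1 at an unadjusted p under 0.05 and 1 by DESeq2).

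These medians were not even across libraries. In 105 dB replicate 3 the median member stood above the 70 dB mean by 0.53 in the ribosomal list, 0.42 in the oxidative phosphorylation list and 0.35 in the proteasome list, on the log2 scale. In 105 dB replicate 4, the lowest of the exposed group, the same medians were 0.104, 0.050 and 0.057, and in 70 dB replicate 2 they were 0.113, 0.105 and 0.060. In all 3 lists an exposed library thus lay below an ambient one. Without 105 dB replicate 3 the fitted medians were 0.19, 0.12 and 0.10. Replicate 3 also had the highest haemoglobin share of the group, 2.89%, and the part of either in these lists was not tested. With trends on GC content and transcript length removed, the ribosomal, oxidative phosphorylation and proteasome medians were 0.27, 0.14 and 0.15.

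**Figure D3:**
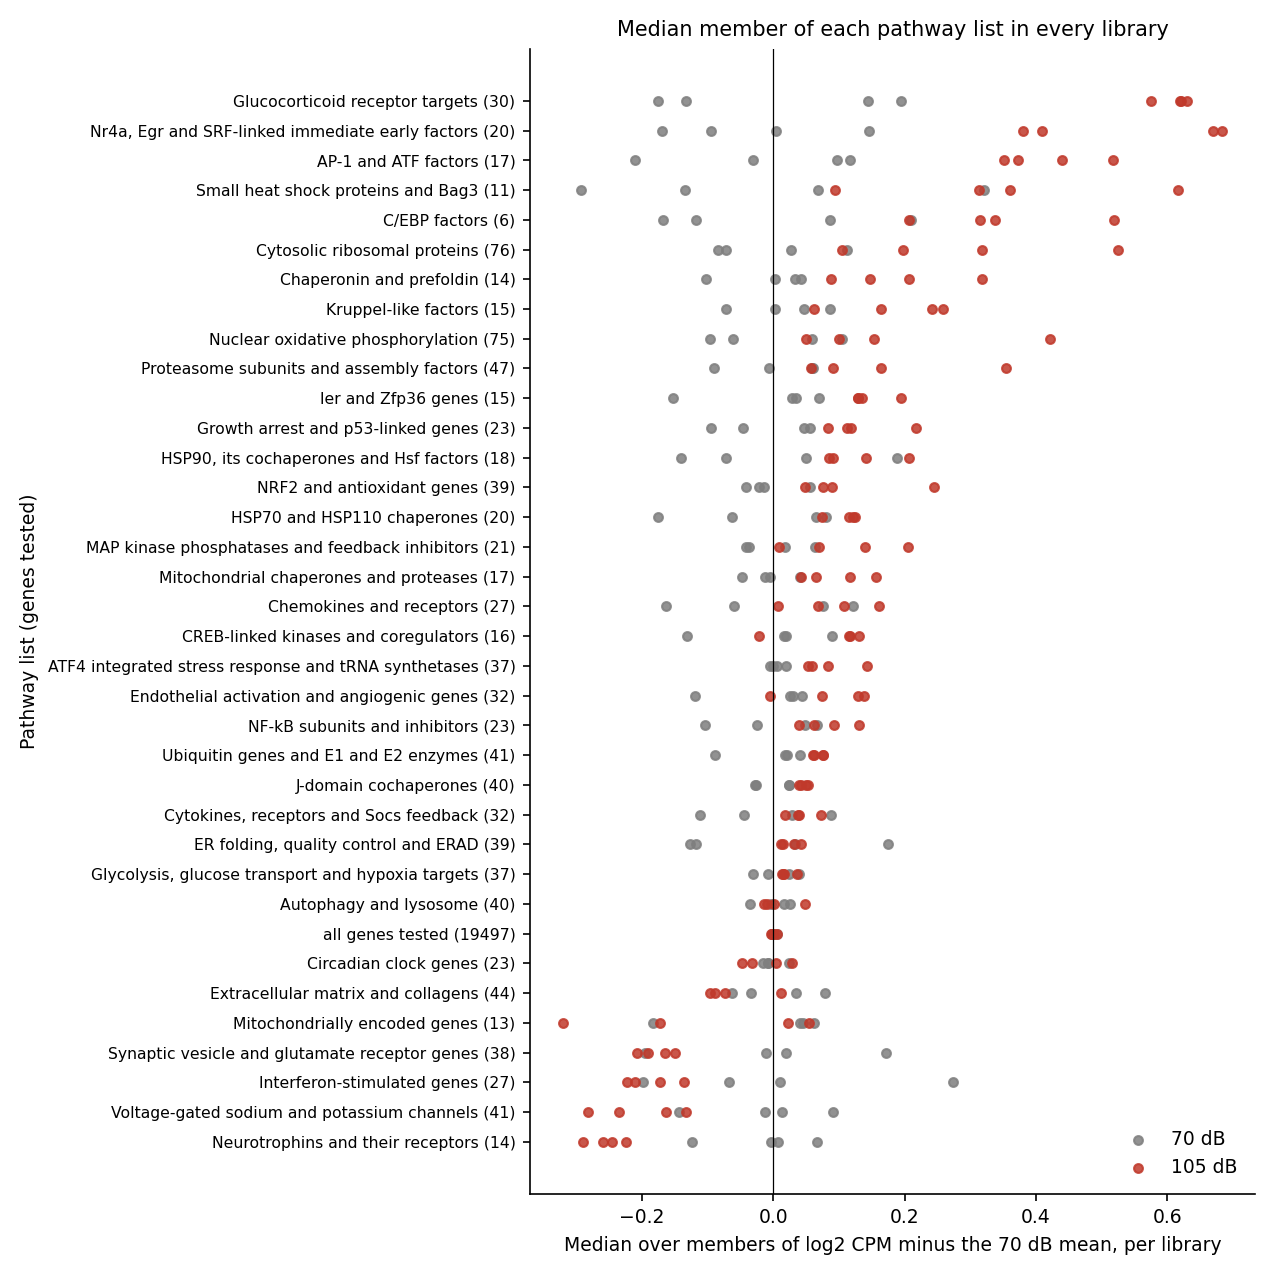
Median over the members of each pathway list (rows, number of genes tested in brackets) of log2 CPM minus the 70 dB mean, with 1 point per library at 70 dB (grey) and 105 dB (red). Glucocorticoid, NR4A and AP-1 lists lie to the right in all 4 exposed libraries, and the ribosomal, oxidative phosphorylation and proteasome lists reach farthest right in 1 library, 105 dB replicate 3.

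The secretory pathway list gave no call by edgeR, and the integrated stress response list gave 3. None of 39 endoplasmic reticulum folding and degradation genes passed by edgeR, with a median of 0.023. Of the 39, 1 had an unadjusted p under 0.05 (2.56%, against 18.7% of all genes) and DESeq2 called 1. Hspa5, the main chaperone there, read 639.7, 876, 1130.5 and 723 CPM at 70 dB and 892, 893, 887 and 878 at 105 dB. Of 37 genes linked to ATF4, the factor translated when initiation is throttled, 3 rose (8.11%, against 1.11% of all genes) and none fell. Atf4 itself read 184, 168, 172 and 148 and 242, 240.4, 265 and 198 CPM (log2 fold change 0.49; SE 0.085; edgeR adjusted p = 0.00489). Gdf15, a stress-induced cytokine, was low and went from 1.76 ± 0.343 to 3.83 ± 0.233 CPM, and Stc2, a secreted glycoprotein gene whose call was kept without 9 of 12 libraries, from 9.81 ± 2.07 to 15.5 ± 1.11 (SD, n = 4). The ATF4 targets Asns, Trib3 and Chac1, and Ddit3, had log2 fold changes of 0.073, -0.049, 0.21 and 0.26, none of which passed. By edgeR there was no call among 40 autophagy and lysosome genes (4 at an unadjusted p under 0.05 and 0 by DESeq2), 41 ubiquitin genes (13 at an unadjusted p under 0.05 and 1 by DESeq2), 17 mitochondrial chaperones and proteases (3 at an unadjusted p under 0.05 and 1 by DESeq2) or 37 glycolysis and hypoxia genes, Aldoa being counted under both of its gene identifiers (5 at an unadjusted p under 0.05 and 2 by DESeq2). In the NRF2 list 2 of 39 rose, Mt1 and the glutathione peroxidase gene Gpx1, the latter with a call kept without only 7 of 12 libraries.

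Fewer genes fell than rose, and several that fell encode transcription factors and receptors. Sox9 (chromosome 11, 112782224 to 112787760), a regulator of supporting cells, cartilage and glia, read 87.1, 86.3, 88.9 and 87.003 CPM at 70 dB and 56.8, 58.1, 52.6 and 61.3 CPM at 105 dB. Both groups were tight and far apart, giving a log2 fold change of -0.61 with an SE of 0.063 (edgeR adjusted p = 2.27e-05). It was the only call among 27 supporting cell genes; Sox2, Prox1, Gjb2 and Hes1 had log2 fold changes of -0.12, -0.27, -0.12 and -0.015. In the fibrocyte and otic mesenchyme list 2 of 16 fell, both transcription factors: Pou3f4 read 85.5, 73.3, 77.7 and 65.9 and 55.8, 50.1, 39.1 and 51.7 CPM, and Tbx18 read 74.6, 73.3, 72.6 and 70.5 and 52.3, 51.3, 56.1 and 59.98 CPM. Abundant fibrocyte products did not pass: the log2 fold changes of Coch, Otos and Slc4a11 were -0.0067, 0.14 and -0.16. The medians of the fibrocyte and supporting cell lists were -0.050 and -0.12. In both lists the median member was lower in every exposed library than in every ambient one. All exposed libraries lay below all ambient ones in 6 of 16 and 5 of 27 genes, against 5.03% of all genes tested. They lay above in 0 and 2. In whole tissue, fewer cells of a type and less RNA per cell cannot be told apart.

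Further genes that fell, named in part after their values were seen, were these. Snai2, a zinc finger repressor, read 11.4, 13.3, 12.6 and 12.3 CPM at 70 dB and 6.71, 5.85, 7.69 and 6.92 CPM at 105 dB (log2 fold change -0.87; SE 0.12; edgeR adjusted p = 7.17e-04), and the neural factor Pou3f2 read 14.003, 13.1, 14.9 and 13.6 and 7.31, 8.46, 8.85 and 8.67. The osteoblast factors Sp7 and Dlx5 had log2 fold changes of -0.50 and -0.60, Sp7 being the only call among 20 bone genes. The bone morphogenetic protein gene Bmp4 went from 28.8 ± 2.10 to 20.01 ± 2.12 CPM, and the WNT inhibitor gene Dkk1 from 30.8 ± 3.22 to 21.6 ± 1.79 CPM (SD, n = 4), with adjusted p of 0.00324 and 0.00450 by edgeR. The activin and BMP antagonist gene Fst was higher (log2 fold change 0.46; edgeR adjusted p = 0.0118). Bmp2, Wnt5a and Ptch1, with log2 fold changes of -0.37, -0.28 and -0.26, passed but kept their calls without only 5, 6 and 2 of 12 libraries. The endothelial transcription factor gene Sox18 and the apelin receptor gene Aplnr fell: Sox18 read 29.3, 30.8, 27.3 and 24.3 and 20.5, 17.1, 21.3 and 17.4 CPM, and Aplnr read 25.4, 28.2, 24.3 and 21.6 and 17.1, 14.6, 13.5 and 15.6 CPM. Over the 21 endothelial markers 2 rose (Vwf, whose call was lost without 105 dB replicate 2, and Esam) and these 2 fell, while Pecam1 and Cdh5 were at 0.071 and -0.0091.

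**Figure D4:**
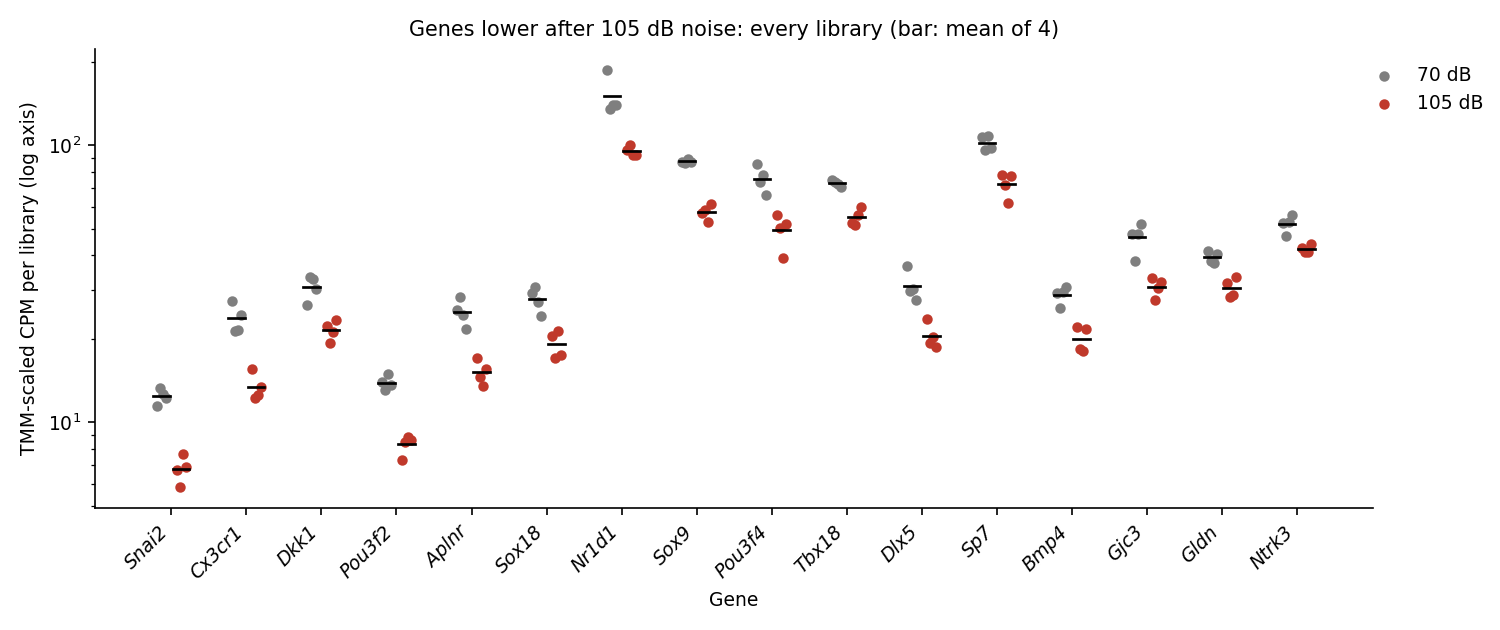
TMM-scaled CPM (log axis) of 16 genes called lower, with 1 point for each of the 4 libraries at 70 dB (grey) and 105 dB (red) and a bar at each group's mean. In each gene shown the red points lie below the grey ones, and the 70 dB points of Sox9 lie between 86.3 and 88.9 CPM.

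Of 25 macrophage and monocyte genes 1 fell and 2 rose, 20 of the 25 had positive log2 fold changes, and the median was 0.16. Cx3cr1 (chromosome 9, 119901616 to 120069879), the fractalkine receptor of resident macrophages and patrolling monocytes, read 27.4, 21.4, 21.6 and 24.4 CPM at 70 dB and 15.6, 12.2, 12.6 and 13.4 CPM at 105 dB (log2 fold change -0.82; SE 0.11; edgeR adjusted p = 4.29e-04). Gpr34, C3ar1 and P2ry13, receptor genes outside that list picked after their values were seen, had log2 fold changes of -0.82, -0.61 and -0.55, with calls kept without 7, 8 and 2 of 12 libraries. Csf1r, Adgre1 and C1qa, which mark macrophages as such, had log2 fold changes of -0.049, 0.0089 and 0.047 (edgeR adjusted p 0.726, 0.973 and 0.854), and the antigen-presentation gene Cd74 was at 0.26. The risers of the list were Pf4, which is also a platelet gene, and Cd14. The bacterial sensor gene Cd14 rose by 0.40, with a call kept without only 4 of 12 libraries. Igkv8-19, an immunoglobulin segment, fell from 2.74 ± 0.587 to 0.778 ± 0.235 CPM (SD, n = 4); none of 22 B cell markers was called by edgeR (5 at an unadjusted p under 0.05 and 1 by DESeq2).

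The Schwann cell, synaptic and channel lists had negative medians, but their libraries overlapped. The Schwann cell list had a median of -0.35 over 20 genes with 1 call, the node of Ranvier gene Gldn (39.4 ± 1.79 and 30.6 ± 2.47 CPM, SD, n = 4; edgeR adjusted p = 0.0223; call kept without 8 of 12 libraries). The median member of that list stood at -0.354 in 70 dB replicate 2, below 3 of the 4 exposed libraries (-0.165, -0.349 and -0.248). Gjc3, a connexin gene of glia, had a log2 fold change of -0.59 with all libraries apart. In spiral ganglion markers 2 of 24 fell (8.33%, against 0.508% of all genes). These were the neurotrophin receptor gene Ntrk3 (52.1 ± 3.86 and 42.2 ± 1.23 CPM) and the RNA-binding protein gene Elavl4 (70.5 ± 10.6 and 54.3 ± 3.23 CPM, SD, n = 4). Their calls were kept without 6 and 7 of 12 libraries. Replicate 4 at 70 dB stood apart in the neuronal intermediate filament gene Prph, which read 49.9, 26.7, 64.9 and 215 CPM in the ambient libraries. At 105 dB Prph read 44.5, 1.52, 30.9 and 26.5 CPM. Synaptic genes (38) and voltage-gated channels (41) had medians of -0.18 and -0.20 with no call by edgeR (15 at an unadjusted p under 0.05 and 5 by DESeq2 and 16 at an unadjusted p under 0.05 and 3 by DESeq2, in this order). The shares at an unadjusted p under 0.05 were 39.5% and 39%, against 18.7% of all genes. In the synaptic list 70 dB replicate 2, at -0.196, was again below 3 exposed libraries. Without single libraries these medians ran from -0.21 to -0.12 and from -0.24 to -0.16. The list of neurotrophins and their receptors (14 genes, median -0.28, 11 negative) did not overlap. Its median member stood at -0.124 to 0.0669 in the ambient libraries and at -0.289 to -0.224 in the exposed ones. It held 1 call by edgeR, not kept without each library, and 4 by DESeq2 (28.6%, against 4.57% of all genes). At an unadjusted p under 0.05 there were 6 (42.9%).

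Markers of the sensory and secretory cells of the cochlea gave no call. None of 27 hair cell genes was called by edgeR or DESeq2. At an unadjusted p under 0.05 there were 5 (18.5%), near the 18.7% of all genes tested. Myo7a was at 22.3 ± 2.53 and 22.9 ± 0.591 CPM, Otof at 40.2 ± 4.09 and 39.7 ± 2.25, and the transcription factor gene Pou4f3 at 10.5 ± 0.196 and 8.60 ± 1.06 (SD, n = 4). None of 14 marginal cell genes (4 at an unadjusted p under 0.05 and 1 by DESeq2) or 15 intermediate cell genes (3 at an unadjusted p under 0.05 and 0 by DESeq2) of the stria vascularis passed by edgeR. The potassium channel genes Kcnq1 and Kcne1 had log2 fold changes of -0.027 and -0.053. None of 44 extracellular matrix genes was called by edgeR (6 at an unadjusted p under 0.05 and 1 by DESeq2).

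The erythroid, neutrophil and B cell lists had positive medians (0.21, 0.13 and 0.18), and the T and NK cell list had a slightly negative one (-0.038). All 31 erythroid genes tested had positive log2 fold changes, with a median of 0.21. Of these, 4 were called by edgeR, among them Klf1, Rhd and Cldn13, which kept their calls without 6, 10 and 10 of 12 libraries. At an unadjusted p under 0.05 there were 13 (41.9%, against 18.7% of all genes), and DESeq2 called 7 (22.6%, against 4.57%). The haemoglobin gene Hba-a1 went from 8636 ± 691 to 11629 ± 2476 CPM (SD, n = 4) and did not pass (edgeR adjusted p = 0.120); its copies share reads. Some platelet genes rose as well, picked after seeing their values: Pf4 from 176 ± 9.03 to 262 ± 26.05 CPM and Ppbp from 569 ± 43.6 to 779 ± 44.3 CPM (SD, n = 4), log2 fold changes of 0.58 and 0.45, with calls kept without 12 and 7 of 12 libraries. Of 28 neutrophil genes only Mpo passed (call kept without 5 of 12 libraries), while the mature markers S100a8 and S100a9 were at 0.29 and 0.12. The neutrophil median of 0.13 was 0.051 with GC and length trends removed and 0.058 without 70 dB replicate 1. Of 17 T and NK cell genes 6 had positive and 11 negative log2 fold changes (median -0.038), with no call by edgeR and 1 by DESeq2. At an unadjusted p under 0.05 there were 3 (17.6%, against 18.7% of all genes). All 26 cell cycle genes had positive log2 fold changes (median 0.22) with no call by edgeR (16, or 61.5%, at an unadjusted p under 0.05 and 3 by DESeq2). All 19 skeletal muscle genes were positive as well (median 0.29), with no call by edgeR (0 at an unadjusted p under 0.05 and 0 by DESeq2). In the erythroid, cell cycle and muscle lists the median member in 70 dB replicate 2 (0.145, 0.136 and 0.381 above the 70 dB mean) was higher than in 2 or more exposed libraries. The summed erythroid list ran from 23049 to 27752 CPM at 70 dB and from 27500.0 to 36641 CPM at 105 dB. The part of blood content in other results was not tested.

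Some rises belong to no list. Rgs1, which ends G protein signalling in leukocytes, read 1.55, 1.56, 1.92 and 1.60 CPM at 70 dB and 5.94, 6.69, 4.51 and 6.41 CPM at 105 dB. Depp1, a FOXO and progesterone-induced gene, read 6.84, 8.70, 7.75 and 8.94 and 25.6, 29.6, 26.1 and 26.3 CPM, and Tcim read 12.9, 15.2, 15.1 and 12.9 and 31.9, 27.9, 32.8 and 31.4. In all 3 genes the groups did not overlap, with edgeR adjusted p of 6.95e-06, 1.09e-06 and 6.95e-06. Otud1, a deubiquitinase gene, went from 33.7 ± 7.83 to 85.8 ± 14.2 CPM, the mitochondrial carrier gene Slc25a25 from 80.9 ± 11.6 to 149 ± 7.52, and the kinase gene Pim3 from 61.5 ± 2.30 to 116 ± 4.98 (SD, n = 4). Abra, an actin-linked activator of serum response factor signalling in muscle, had a log2 fold change of 1.42 but kept its call without only 3 of 12 libraries (edgeR adjusted p = 0.0326). Kcna5, a potassium channel gene, and Lipg, an endothelial lipase gene, were low and rose from 2.06 ± 0.555 to 4.48 ± 0.360 and from 2.50 ± 0.720 to 5.44 ± 1.32 CPM (SD, n = 4), the call of Lipg being lost without 105 dB replicate 2 (edgeR adjusted p = 0.0523).

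To ask which of these genes depended on the level of noise, the same fit compared 105 with 94 dB. Over all genes 3372 (17.3%) differed between the noise levels, with 8.06% higher and 9.23% lower at 105 dB. Within the 94 dB group, replicates 3 and 4 stood apart in makeup. Mitochondrially encoded genes took 2.68% and 2.73% of their counts, against 3.53% and 3.59% in replicates 1 and 2. Without replicates 3 and 4 the count was 217 (1.07%), while the main comparison gave 341 in that fit. In this share 94 dB replicates 1 and 2 were also below every 70 dB library (5.08% to 5.68%) and every 105 dB library (4.43% to 5.35%). That fit thus kept a difference in makeup between the noise levels, and its part in the results below was not tested. Of the 316 genes called at 105 against 70 dB, 74 also differed between 105 and 94 dB, 41 higher and 33 lower at 105 dB. Of the 74, 6 passed again without 94 dB replicates 3 and 4: Car1, Gfi1b, Ppbp and Bpifa2, higher at 105 dB, and Ndufa1 and Kctd10, lower at 105 dB. In the main comparison these 6 calls were kept without 10, 6, 7, 12, 5 and 10 of 12 libraries. The comparison shares its 105 dB libraries with the main one, so a library that is high there is high in both.

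In the fit of all 12 libraries, some early genes differed between the noise levels in opposite directions. Fosb read 4.83, 3.93, 3.47 and 4.21 CPM in the 4 libraries at 94 dB, between the ambient and the 105 dB libraries printed above, and its log2 fold change from 94 to 105 dB was 0.92 (edgeR adjusted p = 0.00483). Ddit4 read 189, 298, 347 and 318 CPM at 94 dB, above every 105 dB library, with a log2 fold change of -0.79 (edgeR adjusted p = 0.00488). Junb and Pim3 were also lower at 105 dB than at 94 dB, with log2 fold changes of -0.57 and -0.56 (edgeR adjusted p 0.00624 and 0.00372). Without 94 dB replicates 3 and 4 none of these 4 passed. Fosb then had a log2 fold change of 0.83 (edgeR adjusted p = 0.0945), Ddit4 of -0.55 (0.0865), and Junb and Pim3 of -0.34 and -0.33 (0.0872 and 0.0702), the last 2 smaller by over 1.5 times. Fos was at 58.3, 45.7, 50.3 and 53.1 CPM at 94 dB and did not differ past the threshold from 105 dB (log2 fold change 0.64; edgeR adjusted p = 0.0606), and Per1 and Tsc22d3 were at -0.26 and 0.00075 (edgeR adjusted p 0.218 and 0.998).

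The 6 genes that passed in both fits are of several kinds. Car1, a carbonic anhydrase gene of erythroid precursors, read 162, 176, 157 and 168 CPM at 70 dB, 134, 156, 129 and 115 at 94 dB and 205, 244, 216 and 223 at 105 dB, so its lowest group was the middle exposure. Gfi1b, a factor of erythroid and platelet precursors, and the platelet gene Ppbp had the same order of means, 39.7 ± 1.85, 33.2 ± 1.57 and 48.6 ± 2.80 CPM and 569 ± 43.6, 519 ± 82.5 and 779 ± 44.3 CPM (SD, n = 4). Bpifa2, a secreted protein gene best known from salivary gland, read 0.281, 0.259, 0.172 and 0.251 CPM at 70 dB, 0.177, 0.292, 0.347 and 0.509 at 94 dB and 1.70, 3.83, 0.869 and 1.48 at 105 dB. The largest of these 6 differences thus rests on few counts, and another salivary gene, Klk1b21, rose too with a call kept without 9 of 12 libraries (from 0.0430 ± 0.0385 to 0.380 ± 0.115 CPM; SD, n = 4). Ndufa1, a subunit gene of complex I, read 21.99, 24.5, 21.7 and 23.5 CPM at 70 dB, 52.1, 49.8, 58.2 and 53.3 at 94 dB and 30.9, 32.3, 30.6 and 24.3 at 105 dB, with the 94 dB group highest. Mt1 was at 142, 159.9, 173 and 149 CPM at 94 dB, inside the ambient range, against 217, 243, 346 and 254 CPM at 105 dB (log2 fold change between the noise levels 0.77; edgeR adjusted p = 0.00564; without the 2 libraries 0.81 and 0.0847).

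**Figure D5:**
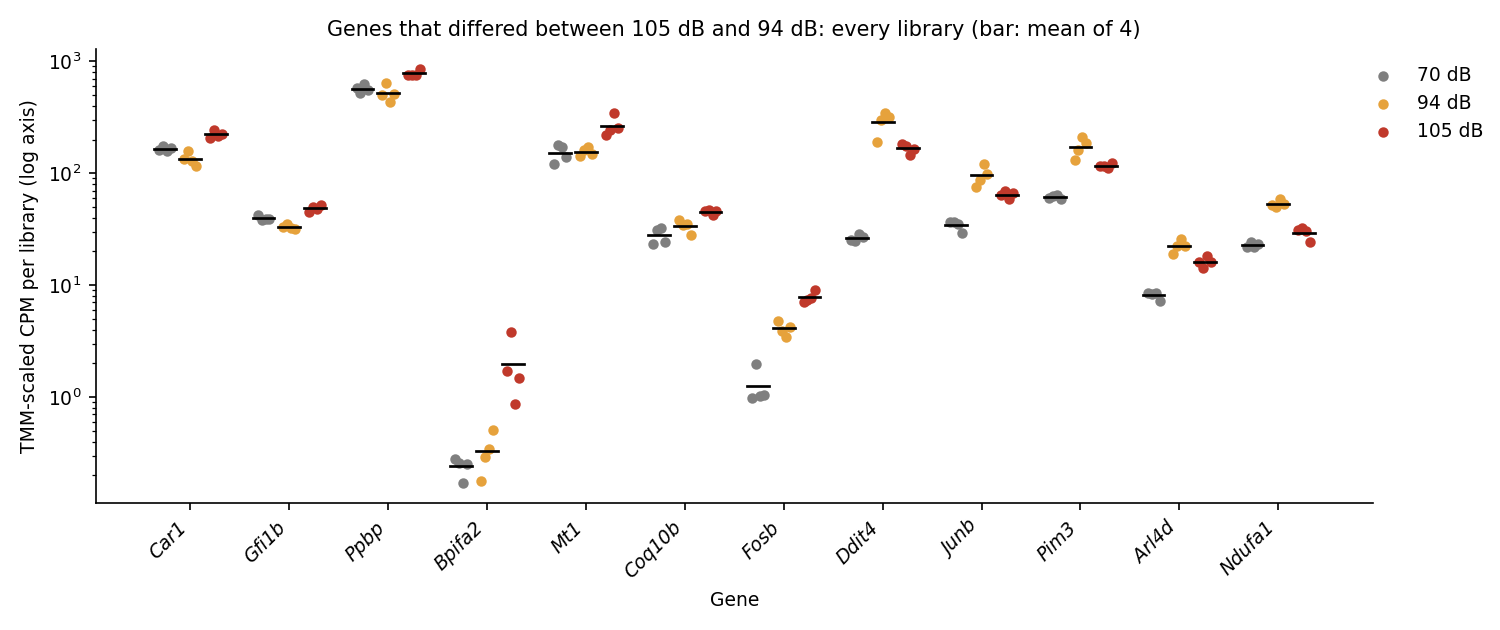
TMM-scaled CPM (log axis) of 12 genes, with 1 point for each of the 4 libraries at 70 dB (grey), 94 dB (orange) and 105 dB (red) and a bar at each group's mean. Fosb climbs with the level of noise, Ddit4, Junb, Pim3, Arl4d and Ndufa1 are highest at 94 dB, and Mt1 and the blood genes at the left are highest at 105 dB.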

How the data were processed

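RNA-seq was done on whole cochlea, 4 libraries each at 70, 94 and 105 dB. The deposited table holds raw counts for each gene as whole numbers. Per the submitters' processing notes they were made with CASAVA, STAR and featureCounts 1.5.0-p3 on build mm10; the sources used here do not give their settings, the annotation, strand use or the handling of multi-mapping reads. Gene symbols and positions are from GENCODE M21, and 93 of the 316 called genes (29.4%) overlap another gene's exons. Within the 70 and 105 dB groups Pearson's r of log2 CPM across genes was 0.984 to 0.991, and no pair of libraries within either group was a duplicate. The 94 dB libraries and pairs across groups were not part of that check.

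Counts were tested with edgeR 4.0.16 in R 4.3.3: filterByExpr (minimum count 10), TMM factors, glmQLFit (robust) on all 12 libraries with a mean per group (9 residual degrees of freedom), glmQLFTest, and Benjamini-Hochberg adjustment over 19497 genes at 0.05. These genes hold 99.9% of counts. CPM values and log2 fold changes were computed here, and the script was tested on simulated data. Limits set by 3 counts cover counting error only. Named genes were the 30 largest rises and 25 largest falls among calls (mean log2 CPM 0 or more), every called member and the 3 most abundant members of 35 pathway and 20 cell type lists, and 8 chaperone and early genes; others are marked as named after their values were seen. The members and lists were chosen with earlier results of these data known. A few genes are not reported here, though they stay in all counts. Promoters came from the RefSeq table of GRCm38.p6, which holds 233 of the 316. Alternatives used DESeq2 1.42.0, sva 3.50.0, upper-quartile factors, other filters, the 8 libraries alone, a replicate block, trends on GC content and exon length (mgcv 1.9.3), a fold threshold of 1.2 and each library left out; a fit without 94 dB replicates 3 and 4 was added after seeing the data.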

Additional observations from a re-analysis of the deposited data

Results flagged for a closer look

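Among 124 groups of 4 libraries checked over the largest risers and fallers, 9 held a library far from the other 3, where chance gives about 1 in 20. At 70 dB, Fosb was at 1.96 CPM in replicate 2 against 0.984 to 1.04 in the others, and Rgs1 at 1.92 in replicate 3 against 1.55 to 1.60. Replicate 1 at 70 dB was high for Nr1d1 (187 CPM against 135 to 140), Mycn (8.01 against 6.78 to 6.86) and Fzd10 (11.6 against 7.52 to 8.14). Replicate 4 at 70 dB was high for the calcium channel gene Cacna2d2 (16.1 CPM against 9.91 to 10.8) and for Tvp23a (7.22 against 4.15 to 4.43). At 105 dB, Nr4a3 was low in replicate 3 (20.2 CPM against 27.8 to 29.0) and Cacna2d2 was high in replicate 4 (7.83 against 6.91 to 7.05). In the fallers Nr1d1, Mycn, Fzd10, Cacna2d2 and Tvp23a the outlying ambient library lay on the far side from the 105 dB group.

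Between the noise levels 6 genes called at 105 dB against 70 dB differed by edgeR both with and without 94 dB replicates 3 and 4. Their log2 fold changes from 94 to 105 dB were 2.55 for Bpifa2, 0.73 for Car1, 0.59 for Ppbp, 0.55 for Gfi1b, -0.38 for Kctd10 and -0.86 for Ndufa1.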

How the results depend on the processing

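The 105 to 70 dB count of 316 (217 higher, 99 lower) changed with the model. It was 101 with 1 surrogate variable (78 higher, 23 lower), 523 with no filter on low counts (348, 175), 891 with DESeq2 (509, 382) and 71 with a fold threshold of 1.2 (61, 10). Deviations of same-numbered libraries at 70 and 105 dB correlated at 0.0819, 0.155, -0.149 and 0.0543. By replicate number, only replicate 2 at 105 dB correlated best with its own number. However, 105 dB replicates 3 and 4 carry the labels C4 and C5, while 70 dB replicates 3 and 4 carry A3 and A4. Replicate 3 at 105 dB correlated best with 70 dB replicate 4, so by label number C4 also matched A4. The 94 dB libraries were not part of this check, and whether same-numbered libraries belong together was not tested further. With a block by replicate number, not by label number, 479 passed (292 higher, 187 lower). With that block and the GC and length trend removed 738 passed (532, 206). Without single libraries the count ran from 126 (without 105 dB replicate 2) to 399, higher calls from 100 to 246 and lower calls from 26 to 163. The 105 to 94 dB count of 3372 ran from 1650 to 3798 without single libraries (higher 714 to 1673, lower 936 to 2125), and was 217 without 94 dB replicates 3 and 4 (57, 160). The cause of these shifts was not tested. None of the 316 called genes changed direction under any alternative run. As they were called from these same counts, that outcome was largely set by the choice. Of 144 genes chosen by the naming rule but not called, 41 changed direction. Among the genes so chosen, 59 lost and 17 gained a call under at least 1 alternative. Under every alternative run 66 of the 316 kept their calls, 57 higher and 9 lower. Depth limits genes near 1 CPM or less, such as Bpifa2, Klk1b21 and Slc26a5, and 9 residual degrees of freedom limit the changes that can be called.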

Other observations

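Other genes past the threshold at 105 dB, named after their values were seen, fall outside the lists. Each is given for itself, with no gene list behind it. Fbl, which methylates ribosomal RNA, went from 50.5 ± 2.63 to 68.2 ± 9.71 CPM, the nucleolar gene Nop56 from 95.2 ± 3.84 to 114 ± 5.28 and the ribosome assembly gene Rrs1 from 20.9 ± 1.62 to 25.9 ± 1.16 (SD, n = 4), with calls kept without 10, 6 and 4 of 12 libraries. Irs2, an insulin receptor substrate gene, had a log2 fold change of 0.41 and the transcription factor gene Foxo3 one of 0.33 (calls kept without 12 and 10 of 12 libraries). The survival genes Mcl1 and Bcl2l1, which oppose mitochondrial apoptosis, rose by 0.40 and 0.39, kept without 8 and 12. Sat1, which breaks down polyamines, read 132, 151, 150.5 and 138 CPM at 70 dB and 179, 183, 199.5 and 177 at 105 dB, and Tsc22d1, a relative of Tsc22d3, read 596, 666, 656 and 624 and 890.1, 855, 871 and 841, both without overlap.

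Sla, an adaptor of antigen receptor signalling, went from 60.9 ± 8.91 to 92.8 ± 4.89 CPM, Trem1, a myeloid receptor, from 6.18 ± 1.89 to 11.6 ± 1.06, and Mcpt8, a basophil protease, from 13.2 ± 0.549 to 20.9 ± 3.56 (SD, n = 4), with calls kept without 10, 10 and 12 of 12 libraries. Tnfsf11, the osteoclast differentiation factor also called RANKL, was low and went from 2.73 ± 0.413 to 5.11 ± 0.657 CPM (SD, n = 4), with 2.29, 3.25, 2.83 and 2.54 CPM in the ambient and 4.29, 5.32, 5.86 and 4.98 CPM in the exposed libraries. The coagulation initiator F3 rose by 0.34, and the urokinase gene Plau fell, with a log2 fold change of -0.49; their calls were kept without 12 and 10 of 12 libraries.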
